A study of Mus musculus with 3 samples.

Results

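The bins described here are 1 kb stretches of the mouse genome with many TET2 reads and almost no OGT reads. Members were chosen by their TET2 and OGT counts: a bin qualified when it held 10 or more distinct TET2 5′ ends and 0 or 1 distinct OGT 5′ ends, after each end was moved 100 bp towards the centre of its fragment. Of 2395169 bins of chromosomes 1 to 19 with reads nearby (build mm9), 1613 met this, which is 0.0673%. The series mapped TET2, OGT and H2B S112GlcNAc by chromatin immunoprecipitation and sequencing, with 1 library for each antibody. The cells of all 3 libraries were mouse embryonic stem (ES) cells of the C57BL/6 strain, grown on gelatin without feeder cells in serum with ESGRO, and neither a genotype change nor a treatment is named in the labels. No input or IgG library was used here, and the files hold no expression with which to check the cell type.

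TET2 oxidises 5-methylcytosine in DNA as a step towards its removal, and it has no DNA-binding CXXC domain of its own. OGT adds the sugar O-linked N-acetylglucosamine (GlcNAc) to serines and threonines of nuclear and cytoplasmic proteins, and TET2 and OGT are known to bind each other. H2B S112GlcNAc is histone H2B carrying that sugar on a serine near its carboxyl end. A stretch with TET2 reads and few OGT reads is a place where the libraries of these partners differ.

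Depth set how much each bin can say. The libraries held 3832237 TET2, 2179445 OGT and 4647963 H2B S112GlcNAc reads, and between 13.4% and 13.9% of reads repeated a position and strand already seen. Counted once, the mean per 1 kb bin was 1.33 TET2, 0.758 OGT and 1.62 H2B S112GlcNAc ends. At that OGT mean, Poisson counts put 82.4% of bins at 0 or 1, and 82.7% of all bins were there. A count of 0 or 1 OGT ends in 1 bin therefore does not show that OGT is absent. Intervals below are exact 95% intervals unless said otherwise and cover counting error only, since PCR copies do not count as separate molecules. Differences have no replicate check, as each antibody has 1 library, and no p-value is given.

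Most members lay just inside the TET2 threshold. Of the 1613, 636 held exactly 10 TET2 ends and 1215 held 10 to 12, while 31 held 20 or more and 6 held 30 or more. The median was 11 TET2 ends and the highest 138. OGT was 0 in 404 members and 1 in 1209. Just outside the thresholds there were 1149 bins with 9 TET2 and 0 or 1 OGT ends, and 1779 bins with 10 or more TET2 and 2 OGT ends. These values chose the members and are given as a description.

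The number of members was above the number that counting noise around a shared OGT rate would give. There were 12352 bins with 10 or more TET2 ends, called TET2 bins from here on, and the members were 13.1% of them. If all bins with the same TET2 count shared 1 OGT rate, Poisson counts at that rate would put 1053 of them at 0 or 1 OGT ends. The observed number was 1.53 times that (1.46 to 1.61). In bins with 10 TET2 ends the mean OGT count was 3.31, and 636 members stood against 486 expected. In bins with 15 TET2 ends the mean was 4.83, and 61 stood against 31.6. At higher TET2 counts the number expected rested on extreme bins, which are the 836 bins in the top 0.1% of all 3 libraries. They were 745 of the 1412 bins with 20 or more TET2 ends, where the mean OGT count was 36.7 with them and 5.66 without them. For the 31 members with 20 or more TET2 ends the number expected was 1.92 with extreme bins and 16.3 without them, a ratio of 1.90 (1.29 to 2.69) in the second case. For the 6 members with 30 or more it was 0.000222 with them and 1.68 without, a ratio of 3.56 (1.31 to 7.76). Extreme bins are high in OGT by definition, so leaving them out lowers the mean in part by construction. Without them the ratio was 1.31 at 10 TET2 ends, 1.93 at 15 and 1.52 at 20 to 24.

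**Figure D1:**
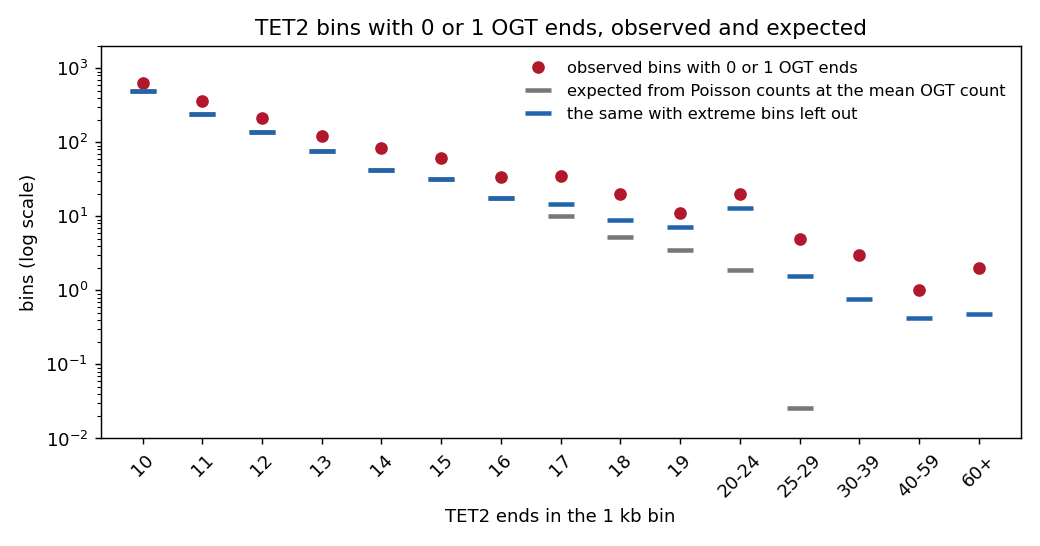
Number of 1 kb bins (log scale) with 0 or 1 OGT ends by TET2 count: points are observed bins, grey bars the number expected if bins of equal TET2 count shared 1 OGT rate (not drawn below 0.01), blue bars the same with extreme bins left out. The points sit above the bars throughout, by 636 against 486 at 10 TET2 ends, and from 20 to 24 by 20 against 1.90 (grey) or 13.1 (blue).

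How many members noise accounts for depended on the rate assumed. Splitting the TET2 and OGT ends of every bin at the OGT share of both libraries, 36.3%, gave 671 expected members. Splitting at the OGT share inside TET2 bins, 30.6%, gave 1525, so that the observed number was 1.06 times the expected one. That share came from bins chosen for a high TET2 count and pooled all their ends, extreme bins included. Among bins with 20 or more TET2 ends the mean OGT count was 36.7 with extreme bins and 5.66 without them. The share without extreme bins was not computed, so the 1.06 holds for the pooled share alone. If OGT lay at its genome mean in every TET2 bin, 10178 would have qualified, which is many more than did. H2B S112GlcNAc was then put in place of OGT, extreme bins included. Here 214 TET2 bins held 0 or 1 ends against 63.3 expected at the mean for their TET2 count, a ratio of 3.38 (2.94 to 3.87). The ratio was 2.31 at up to 2 ends and 1.90 (1.80 to 2.00) at up to 3, where 1340 bins qualified. H2B S112GlcNAc was denser than OGT, at 7.81 against 4.59 ends in the other TET2 bins weighted to the members' TET2 counts. The same cut of 0 or 1 therefore lies further below its mean.

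H2B S112GlcNAc, which the rule did not use, was raised in the members and lower there than in other TET2 bins. The mean was 5.90 ends per bin (5.78 to 6.02), against 1.62 over all bins, a fold of 3.64 (3.56 to 3.71). The lowest member held 0, the median 6 and the highest 18, and 17 members held 0. At least 5 H2B S112GlcNAc ends were found in 65.1% of members (62.7 to 67.4), against 6.05% of all bins and 83.5% of TET2 bins with 2 or more OGT ends. Weighted to the members' TET2 counts, the other TET2 bins held 7.81 ends (7.75 to 7.87, normal approximation). The ratio of members to these was 0.755 (0.739 to 0.772, normal approximation on the log scale). The bin with 138 TET2 ends had no counterpart of equal count and was left out of that ratio.

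H2B S112GlcNAc followed the OGT count without a step at the threshold. Among bins with 10 to 19 TET2 ends the mean was 5.44 ends (5.21 to 5.67) at 0 OGT ends, 6.02 (5.88 to 6.16) at 1 and 6.35 (6.23 to 6.47) at 2. It went on to 8.07 (7.92 to 8.23) at 5 and 12.2 (11.7 to 12.9) at 10 OGT ends. The intervals at 0, 1 and 2 OGT ends did not meet, but the gaps between them were small beside the distance of each from the mean of all bins. TET2 rose along the same series from a mean of 11.4 to 14.04 ends, and its part in the climb was not tested.

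**Figure D2:**
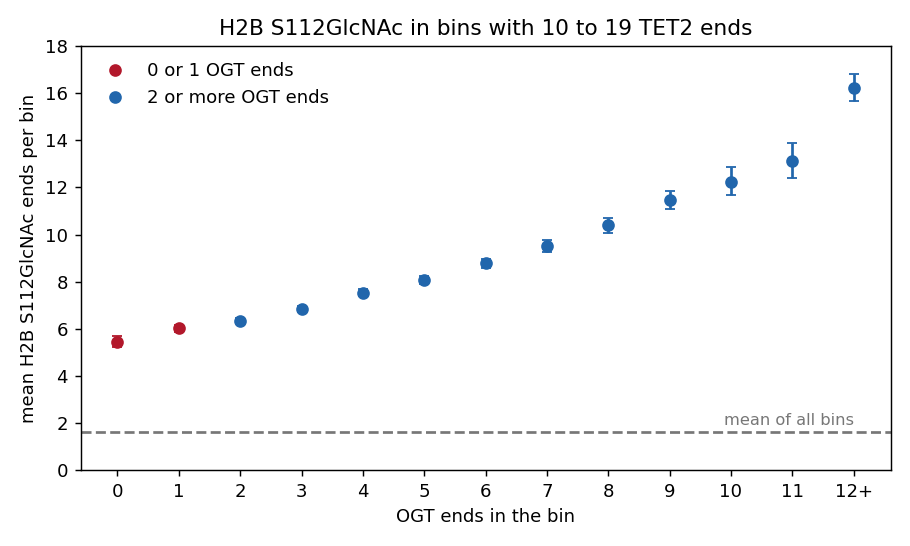
Mean H2B S112GlcNAc ends per 1 kb bin by OGT ends in the bin, for bins with 10 to 19 TET2 ends; error bars are exact 95% Poisson intervals and the dashed line is the mean of all bins, 1.62. The means climb from 5.44 at 0 OGT ends to 12.2 at 10, and the members (0 or 1) lie at the low end of that climb.

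With OGT held at 0 or 1, H2B S112GlcNAc still rose with TET2. The mean was 0.987 ends in bins without TET2 ends, 1.68 at 2 TET2 ends, 3.05 at 5 to 6 and 5.32 (5.14 to 5.50) at 10. It was 6.75 (6.40 to 7.11) at 13 to 14 and 7.24 (6.83 to 7.66) at 15 to 19. At 20 or more it was 7.23 (6.31 to 8.24), which was not distinguishable from the group before it. No input library was used here, so any read density common to all antibodies is part of these values; its part was not tested.

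The members lay in stretches rich in reads of all 3 libraries, OGT included. In the bins touching a member, which the rule did not use, there were 1.73 OGT ends per bin (1.68 to 1.77), or 2.28 times the genome mean. The bins 2 to 5 away held 1.36 (1.34 to 1.38), and those 10 to 50 away held 1.28, still 1.69 times the genome mean. The touching bins were therefore 1.27 times (1.23 to 1.30) denser in OGT than those 2 to 5 away. Around other TET2 bins, weighted to the same TET2 counts, the corresponding ratio was 1.35. OGT was thus low in the member bin, as the rule demands, and above its surroundings on both sides.

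TET2 and H2B S112GlcNAc showed the same surroundings. Bins 10 to 50 away from members held 1.81 times the genome mean of TET2 and 1.70 times that of H2B S112GlcNAc. Other TET2 bins lay in slightly denser stretches, at 1.95 times for TET2, 1.85 times for OGT and 1.85 times for H2B S112GlcNAc. Against the bins 2 to 5 away, H2B S112GlcNAc was 2.00-fold (1.96 to 2.05) denser in the member bin and 2.26-fold denser in the other TET2 bins. For TET2 itself, which the rule used, the fold was 4.51 in members and 3.86 in the others.

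**Figure D3:**
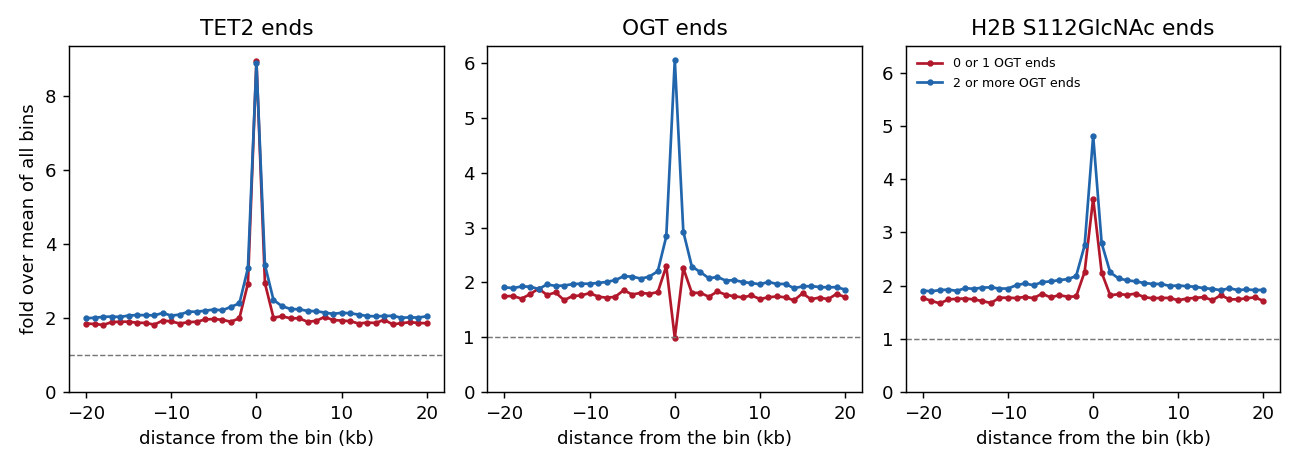
Mean ends per 1 kb bin, as fold over the mean of all bins, by distance in kb from the bin, for TET2 (left), OGT (middle) and H2B S112GlcNAc (right); red are members and blue other TET2 bins weighted to the members' TET2 counts. OGT in members drops to 0.989 in the bin, as the rule demands, between touching bins at 2.28, while H2B S112GlcNAc peaks at 3.64 in members and 4.81 in the others.

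The low OGT count held for part of the members when the window was moved. In the 1 kb centred on the median TET2 end of each member, a window that overlaps the bin by which the member was chosen, 1204 of the 1613 (74.6%, 72.4 to 76.8) still held 0 or 1 OGT ends, and the highest count was 16. For the members with 20 or more TET2 ends this was 26 of 31 (83.9%, 66.3 to 94.5), with at most 5 OGT ends. When OGT was asked to be 0 or 1 in the bin and also in the bins moved 500 bp either way, 634 members remained. Members were chosen for few OGT ends in 1 window, so a moved window tends to hold more by selection alone. A further condition can also only lower the number. No number expected from this was computed, so an effect of the bin edges was not tested.

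Members were scattered. Only 36 of the 1613 (2.23%, 1.57 to 3.08) touched another member, while 22.0% of all TET2 bins touched another TET2 bin. Joined within 10 kb, the members fell into 1549 loci, of which 1490 held 1 member, 54 held 2 and 5 held 3. The median gap between neighbouring members of a chromosome was 433 kb, and between TET2 bins 46 kb. A class with fewer bins touches itself less often whatever its placement, so the shares were also set among TET2 bins alone. Of 259 TET2 bins that touch a member, 36 were members themselves (13.9%, 9.93 to 18.7). All 259 touch a TET2 bin, so the like share is that of bins touching any TET2 bin. Of 2722 such bins, 253 were members (9.29%, 8.23 to 10.4). That share lies just below the first interval, though the intervals overlap. Touching members were counted from both sides and are not independent, which the first interval does not allow for. Over all TET2 bins the share was 13.1%. Members also had a TET2 bin beside them less often, in 15.7% of cases (13.9 to 17.6) against 23.0% (22.2 to 23.8) for the other TET2 bins, not weighted to the same TET2 counts.

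No locus held more than 3 members, and the 5 loci with 3 differed in H2B S112GlcNAc. On chromosome 16 from 30063001 to 30071000 the 3 members held 16, 13 and 17 TET2 ends and 8, 6 and 12 H2B S112GlcNAc ends. On chromosome 5 from 124018001 to 124024000 they held 11, 14 and 15 TET2 ends and 5, 5 and 3 H2B S112GlcNAc ends. On chromosome 11 from 98816001 to 98825000 they held 12, 14 and 12 TET2 ends and 2, 1 and 2 H2B S112GlcNAc ends. The chromosome 11 locus was thus nearest to the genome mean of H2B S112GlcNAc. On chromosome 15 from 77776001 to 77788000 the members held 11, 14 and 12 TET2 ends and 4, 6 and 11 H2B S112GlcNAc ends. On chromosome 8 from 74093001 to 74104000 they held 10, 11 and 10 TET2 ends and 6, 8 and 2 H2B S112GlcNAc ends.

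All 19 autosomes held members, in numbers that followed the number of TET2 bins. The density was 0.673 members per Mb over all autosomes, lowest on chromosome 16 with 0.295 (0.196 to 0.426) and highest on chromosome 11 with 1.28 (1.08 to 1.50). The ratio of highest to lowest was 4.34 for members and 3.79 for TET2 bins. The extremes lay on different chromosomes: TET2 bins were densest on chromosome 12 (10.1 per Mb) and sparsest on chromosome 3 (2.66 per Mb). As a share of TET2 bins, the interval of 15 of the 19 chromosomes held the pooled 13.1%. Chromosome 5 lay above it with 16.8% (14.5 to 19.4, 156 of 926 bins). Chromosome 8 lay below it with 8.64% (6.85 to 10.7, 74 of 856), as did chromosome 12 with 10.6% (8.94 to 12.5) and chromosome 16 with 9.03% (6.09 to 12.8). The 19 intervals were not adjusted for their number. The mean H2B S112GlcNAc count of members ranged from 5.47 on chromosome 5 to 6.59 on chromosome 10.

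**Figure D4:**
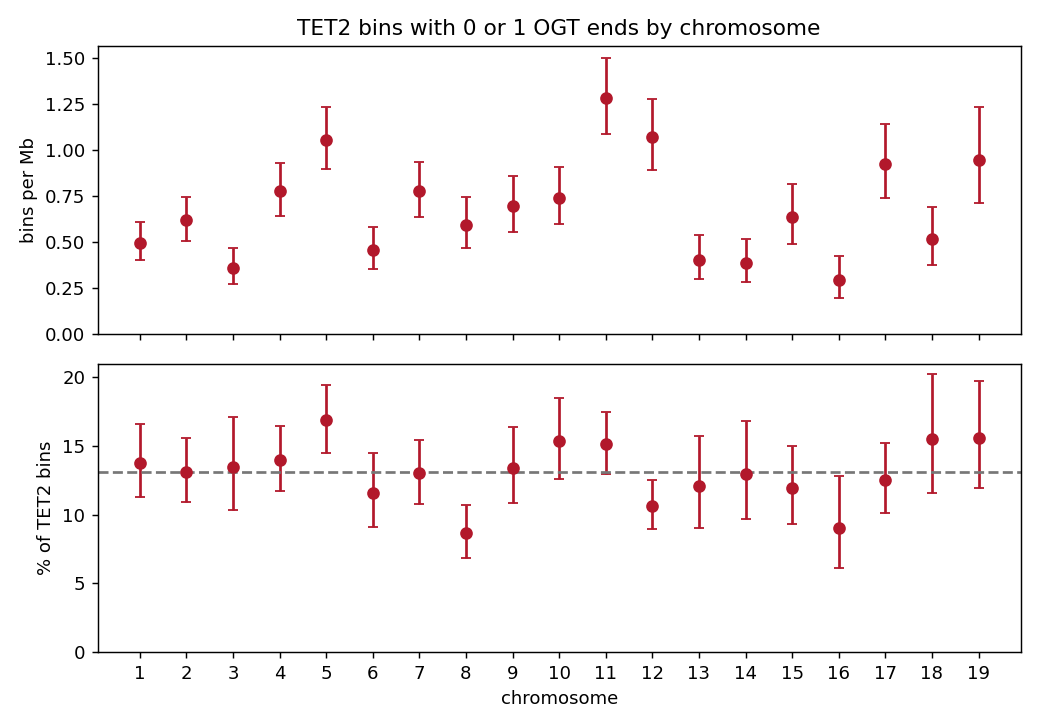
Members per Mb of bins with reads nearby (top) and members as a percentage of TET2 bins (bottom) by chromosome, with exact 95% intervals; the dashed line is the pooled share, 13.1%. Density varies from 0.295 to 1.28 per Mb, while most shares hold the pooled value within their interval.

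Pooled over pairs of ends, the spacing of TET2 ends on the 2 strands differed between members and other TET2 bins. In a fragment library the minus-strand 5′ ends at a bound place lie downstream of the plus-strand ends by about the fragment length, whereas a spacing of the read length minus 1 (43 bp here) means that reads of both strands cover the same bases. Over all pairs of TET2 ends on opposite strands in members with 10 to 19 ends, the most frequent spacing was 97 bp, but their histogram was nearly flat there, with 994 to 1035 pairs in each 10 bp from 50 to 99 bp. Members with 0 OGT ends had their most frequent spacing at 75 bp and those with 1 at 96 bp. In other TET2 bins with 10 to 19 ends it was 43 bp. Pairs spaced 38 to 48 bp numbered 0.912 times those spaced 88 to 98 bp in the members (1022 against 1121) and 1.57 times in the others (10661 against 6791).

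That excess near the read length grew with the OGT count. The ratio was 0.921 at 0 OGT ends, 0.909 at 1, 1.05 at 2, 1.15 at 3 to 4, 1.55 at 5 to 9 and 5.52 at 10 or more. It was lower in members than in the others on 18 of the 19 chromosomes, with values from 0.577 to 1.32 in members and from 1.05 to 2.64 in the others. Counting only positions covered by 1 read brought the others to 1.22 and left the members at 0.909, so the gap narrowed. Pairs within a bin share ends and are not independent, so no interval is given.

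**Figure D5:**
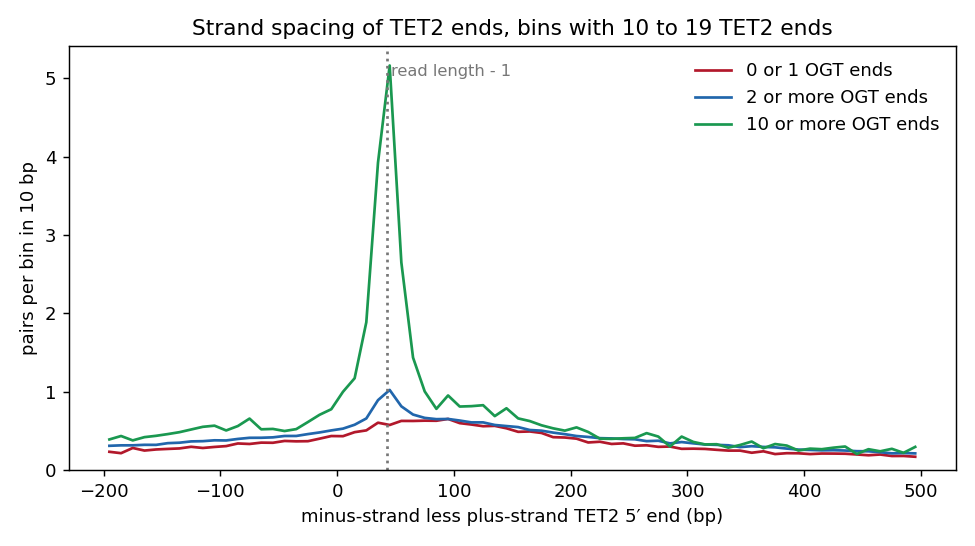
Pairs of TET2 5′ ends on opposite strands per bin, in steps of 10 bp, by spacing in bp, for bins with 10 to 19 TET2 ends; red are members, blue other TET2 bins and green those with 10 or more OGT ends, and the dotted line is the read length minus 1. The blue and green lines peak at the dotted line, and the red line is nearly flat from 50 to 99 bp, with no peak at the dotted line.

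Bin by bin the median spacing did not tell the sets apart. In the 953 members with at least 5 TET2 ends on each strand, the median minus-strand end lay 78 bp (67 to 88) to the right of the median plus-strand end, with quartiles of -30 and 170.5 bp. For other TET2 bins with 10 to 19 ends the median was 73.5 bp, which lies in the members' interval. A spacing within 5 bp of 43 was found in 3.04% of members (2.05 to 4.34) and 3.83% of those others (3.37 to 4.34), and these intervals overlap. Width and repeats were close in both sets. The best 500 bp held a median of 53.3% of the TET2 ends of the surrounding 3 kb in members with 10 to 19 ends and 53.5% in the others. Members had 1.07 reads per distinct TET2 end and others 1.08, but 31 of the others and 0 of the members had 2 or more reads per end.

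Most of the strongest members were narrow. The 12 loci with the highest TET2 counts held 24 to 138 TET2 ends and lay on 9 chromosomes. Their H2B S112GlcNAc counts ran from 6 to 12 with a median of 7, and in all 12 the interval lay above the genome mean. That comparison did not use the surrounding bins. In 9 of the 12 at least 80% of the TET2 ends of the surrounding 3 kb fell within 500 bp. For all members with 20 or more TET2 ends the median was 68% (quartiles 53.3 and 84.5). Other TET2 bins of 20 or more ends outside extreme bins had a median of 62.1% (quartiles 50 and 76), so the 2 ranges overlapped widely.

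The highest, from 67451001 to 67452000 of chromosome 18, held 138 TET2 ends, 1 OGT end and 7 H2B S112GlcNAc ends. The touching bins held 0 and 1 TET2 ends, and 99.3% of the ends of the 3 kb lay in 500 bp. The bins 2 to 5 away on either side held 44 TET2 ends together. The 138 ends came from 227 reads, or 1.64 reads per end, the highest among members, whose mean was 1.07. Its 73 plus-strand and 65 minus-strand ends (counted with 100 bp on each side) were spaced by 124 bp. This locus was a sharp, strand-separated TET2 peak with H2B S112GlcNAc at 4.31 times the genome mean (1.73 to 8.89). The bins 2 to 5 away on either side held 29 H2B S112GlcNAc ends together. Whether the 7 ends of the bin stood above those surroundings was not tested.

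The next, on chromosome 10 from 79167001 to 79168000, combined 67 TET2 ends at a spacing of 115 bp with 1 OGT and 8 H2B S112GlcNAc ends. The bins 2 to 5 away on either side of it held 47 H2B S112GlcNAc ends together. On chromosome 2 at 173563001 to 173564000 there were 52 TET2, 1 OGT and 7 H2B S112GlcNAc ends, spaced by 89.5 bp, with 15 more TET2 ends in the bin to the left. On chromosome 5 at 65782001 to 65783000 there were 39 TET2, 0 OGT and 8 H2B S112GlcNAc ends.

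On chromosome 8 at 117728001 to 117729000 there were 32 TET2, 0 OGT and 6 H2B S112GlcNAc ends. The touching bins were nearly empty in every library, with 0 TET2 ends, 0 OGT ends, and 1 and 0 H2B S112GlcNAc ends. The bins 2 to 5 away on either side held 16 TET2, 7 OGT and 10 H2B S112GlcNAc ends together. On chromosome 13 at 51941001 to 51942000 there were 31 TET2, 1 OGT and 12 H2B S112GlcNAc ends. That locus was unlike the other 5 named so far in OGT: the touching bins held 5 and 8 OGT ends. A further 18 TET2 ends lay to the right. Its best 500 bp held 49.02% of the TET2 ends, the lowest value among the 12.

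The other 6 of the 12 held 24 to 26 TET2 ends. They lay on chromosome 2 at 71711001, chromosome 6 at 112646001, chromosome 9 at 90009001, chromosome 5 at 116052001, chromosome 7 at 112548001 and chromosome 10 at 61216001, each over 1 kb. Each held 1 OGT end, except the last with 0. Over all 12 loci the spacing ran from 45 to 142 bp and was 70 bp or more in 7. The bin on chromosome 5 at 129525001 also held 24 TET2 ends and so tied for the last place, but is not counted among the 12. It held 1 OGT and 5 H2B S112GlcNAc ends, its spacing was -2 bp, and its best 500 bp held 52.3% of the TET2 ends.

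The 31 members with 20 or more TET2 ends were not all alike in H2B S112GlcNAc. Their counts ran from 1 to 17 with a median of 7, and the mean of 7.23 (6.31 to 8.24) lay below the 10.7 (10.4 to 10.96) of other TET2 bins of 20 or more ends outside extreme bins. Chromosome 5 from 34712001 to 34713000 held the most, 17 H2B S112GlcNAc against 23 TET2 ends. Then came chromosome 9 at 121037001 with 14 against 20, and the loci of chromosomes 13 and 5 named above with 12 and 11, the latter a count that 1 more member shared. Chromosome 13 from 17896001 to 17897000 held the fewest, 1 against 21. Chromosome 7 at 134920001 held 3 against 23, chromosome 13 at 63664001 held 3 against 20 and chromosome 15 at 38400001 held 4 against 23, a count of 4 that 3 more members shared. As fold over the genome mean, the H2B S112GlcNAc interval was 6.10 to 16.8 at the first of these and 0.672 to 6.31 at the last. The intervals of the 4 highest lay above the genome mean, and those of the 4 lowest held it. None of the 31 was an extreme bin.

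The bins were not matched to genes, imprinted regions or repeats, because the gene table used here is of another genome build. No sequence of the bins was used here for the same reason.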

How the data were processed

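The 3 deposited files list aligned reads of 44 bp, 1 per line, and a deposited score that never varies was not used. Start and end positions were counted from 0 in the deposited files. The submitters' processing notes list mm9, CASAVA 1.4 and Bowtie 0.12.2 without roles. The authors' handling of multiple matches and repeated reads is not stated there. The OGT file names chromosomes by sequence identifiers of the assembly, which were translated.

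Distinct 5′ ends (position and strand) were moved 100 bp and counted in 1 kb bins. Bins in 10 kb stretches with a read in any library were usable. Spacing used unmoved ends in the bin plus 100 bp on each side. Numbers expected from noise are closed formulas, checked on simulated data. Intervals are exact Clopper-Pearson or Poisson, that of a median from order statistics. Those of the H2B S112GlcNAc comparison weighted to the TET2 counts are normal approximations. Named bins are the 12 loci (members joined within 10 kb) with most TET2 ends in a bin, the 4 members each with the most and fewest H2B S112GlcNAc ends among those of 20 or more TET2 ends, and the loci with most members (5 tied with 3 members each, where 3 loci had been planned). Ties were broken by the higher TET2 count, then by chromosome name sorted as text (10 before 5) and by position. The members and rules were chosen with earlier results of these data known. Python 3.11.15, NumPy 2.4.6, pandas 2.3.3 and SciPy 1.17.1 were used.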

Additional observations from a re-analysis of the deposited data

Results flagged for a closer look

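Chromosome X was outside the rule, and its bins entered no comparison. There 27 bins held 10 or more TET2 and 0 or 1 OGT ends. They were 12.4% (8.36 to 17.6) of the 217 TET2 bins of that chromosome, beside 13.1% on the autosomes, with at most 14 TET2 ends and a mean of 6.37 H2B S112GlcNAc ends.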

How the results depend on the processing

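No paired analysis was possible because 1 library stands for every antibody. The number of members followed the thresholds: 5051 with 8 or more TET2 ends, 192 with 15 or more, 31 with 20 or more, 404 with OGT 0 alone and 3392 with OGT 0 to 2. It was 634 when OGT also had to be 0 or 1 in the bins moved 500 bp either way. With every read counted and the thresholds unchanged it rose from 1613 to 2362, which was still within 1.5 times. Mean H2B S112GlcNAc was 5.74 ends with every read counted, 5.74 with bins moved by 500 bp and 7.23 with 20 or more TET2 ends. Its ratio to other TET2 bins was 0.729 with moved bins, 0.776 without extreme bins, 0.406 without weighting to the TET2 counts, 0.379 with 20 or more TET2 ends and 0.694 with that and no extreme bins. It was below 1 in every setting run. The share touching another member was 1.22% with moved bins and 0% with 20 or more TET2 ends. The median spacing was 91 bp with 10 or more ends per strand. The binomial number was 1525 at the OGT share of TET2 bins, extreme bins included. The ratio to the number expected was 16.1 with 20 or more TET2 ends and 1.90 with that and no extreme bins, and with H2B S112GlcNAc in place of OGT it was 3.38, 2.31 and 1.90 at up to 1, 2 and 3 ends. The share of pairs near the read length, members over others, was 0.581, and 0.748 with positions of 1 read alone. Fewer members follow from stricter thresholds by construction; for the other changes the cause was not tested. Of 45 alternatives 21 stayed within 1.5 times (counts) or the 95% interval. The spread over chromosomes could not be given at 20 or more TET2 ends, where some chromosomes held 0 members. The pair spacing, the centred bins, the H2B S112GlcNAc counterpart the ratio to the number expected at 20 or more TET2 ends and the settings that join 20 or more TET2 ends with no extreme bins were chosen after seeing the data.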

Other observations

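TET2 bins poor in OGT and TET2 bins poor in H2B S112GlcNAc overlapped in part. Of the 214 TET2 bins with 0 or 1 H2B S112GlcNAc ends, 74 (34.6%) were members, and these were 4.59% of the members. With up to 3 H2B S112GlcNAc ends there were 1340 TET2 bins, of which 346 (25.8%) were members, or 21.5% of the members. Members were 13.1% of all TET2 bins.

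A member chosen after its values were seen lay beside a bin with the opposite pattern. On chromosome 7 at 19894001 to 19895000 there were 20 TET2, 1 OGT and 6 H2B S112GlcNAc ends, and the bin to the right held 4 TET2, 8 OGT and 33 H2B S112GlcNAc ends.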
